A study of Arabidopsis thaliana with 2 samples.

Results

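SAUR genes encode small proteins named for their rapid induction by auxin (Small Auxin Up RNA), and 7 of them, placed in 3 tandem clusters, are described here by their reads in leaves with normal and with reduced WRKY75. They were chosen by locus from the deposited tables of transcripts that differed between the libraries: SAUR62 (AT1G29430) and SAUR68 (AT1G29510, also named SAUR67) on chromosome 1, SAUR19 (AT5G18010), SAUR21 (AT5G18030) and SAUR24 (AT5G18080) on chromosome 5, and SAUR1 (AT4G34770) and SAUR5 (AT4G34810) on chromosome 4. They are 7 of 16 listed SAUR loci and of 2159 listed loci in all. The study, titled for leaf senescence, sequenced mRNA of the third and the fourth leaf of Arabidopsis thaliana plants 28 days old. Its 2 libraries were 1 of the wild-type accession Col-0 and 1 of WRKY75RNAi plants in the same ecotype, in which a transgene silences the transcription factor gene WRKY75 by RNA interference. The sources used here do not name the promoter of that transgene, the number of lines or the number of plants pooled.

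The members were chosen by the contrast that is described, so their directions are not a finding. The tables listed all 5 members on chromosomes 1 and 5 as higher in WRKY75 RNAi and both members on chromosome 4 as lower, against a background of 4.32% of all tested transcript models listed as higher and 3.17% as lower, 7.49% in all. With 1 library per genotype there is no spread between plants and no test. Each log2 ratio is given with its 95% interval from the reads alone (exact, Clopper-Pearson), which covers counting error and nothing else. Library totals were 41328980 reads for wild type and 38042482 for WRKY75 RNAi. In such bulk leaf samples fewer cells of a type and less RNA per cell cannot be told apart. Of 12 marker genes fixed for leaf, root, flower or meristem, and dividing cells, 0 were listed, so the tissue label could not be checked from levels.

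Auxin brings SAUR transcripts up within minutes, and the transcripts are short-lived. The best studied members, those of the SAUR19 group on chromosome 5 and the SAUR63 group on chromosome 1, promote cell expansion. SAUR19 proteins bind and inhibit phosphatases of clade D of the PP2C family, which otherwise remove the activating phosphate from the plasma membrane proton pumps that acidify the cell wall. Brassinosteroid, gibberellin and light signals also act on many SAUR genes.

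How alike the members are was read from the RefSeq TAIR10.1 sequence, since related genes can share reads. For each cluster the ungapped stretch of 90 coding bases with the most positions in common is printed in the sense of the transcript, with the positions at which the members of that cluster differ in capitals. The chromosome 1 pair (coding bases 190 to 279 in both) differed at 3 of the 90 positions:
SAUR62: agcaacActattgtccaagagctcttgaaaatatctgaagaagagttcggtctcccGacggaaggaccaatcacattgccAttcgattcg
SAUR68: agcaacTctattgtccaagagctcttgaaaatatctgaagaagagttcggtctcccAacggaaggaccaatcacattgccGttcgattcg
The chromosome 5 members, shown over their last coding bases (184 to 273 in SAUR19 and SAUR24, 178 to 267 in SAUR21), differed at 6:
SAUR19: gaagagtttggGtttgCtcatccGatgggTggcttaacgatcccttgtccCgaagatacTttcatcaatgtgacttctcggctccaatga
SAUR21: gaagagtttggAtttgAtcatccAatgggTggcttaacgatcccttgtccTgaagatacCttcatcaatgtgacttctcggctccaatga
SAUR24: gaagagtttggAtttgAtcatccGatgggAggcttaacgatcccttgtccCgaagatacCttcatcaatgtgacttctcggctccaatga
The chromosome 4 pair (coding bases 150 to 239 in SAUR1 and 195 to 284 in SAUR5) differed at 28 even in its most similar stretch:
SAUR1: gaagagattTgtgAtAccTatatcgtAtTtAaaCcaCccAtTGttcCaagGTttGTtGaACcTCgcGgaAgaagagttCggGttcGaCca
SAUR5: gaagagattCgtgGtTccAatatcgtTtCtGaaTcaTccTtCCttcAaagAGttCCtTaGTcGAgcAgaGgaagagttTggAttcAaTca

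Over whole coding sequences the members on chromosome 5 were the closest. SAUR19 and SAUR24 were identical over 95.2% of alignment columns, SAUR19 and SAUR21 over 93.8%, and SAUR21 and SAUR24 over 92.7%. SAUR62 and SAUR68 were identical over 84.6%, whereas SAUR1 and SAUR5 were identical over 54.7%, no closer than SAUR19 was to SAUR1 (56.5%). Between the chromosome 1 and chromosome 5 members identity lay between 37.3% and 41.0%. The proteins follow the same order, with an identity of 93.3% to 95.6% among the chromosome 5 members, 81.1% for the chromosome 1 pair and 45.0% for the chromosome 4 pair. They have 88 to 90 residues on chromosome 5, 141 and 143 on chromosome 1, and 104 and 118 on chromosome 4. The longest coding stretch without any difference was 65 bases in the 3 chromosome 5 members, 49 bases in the chromosome 1 pair and 10 bases in the chromosome 4 pair.

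**Figure D1:**
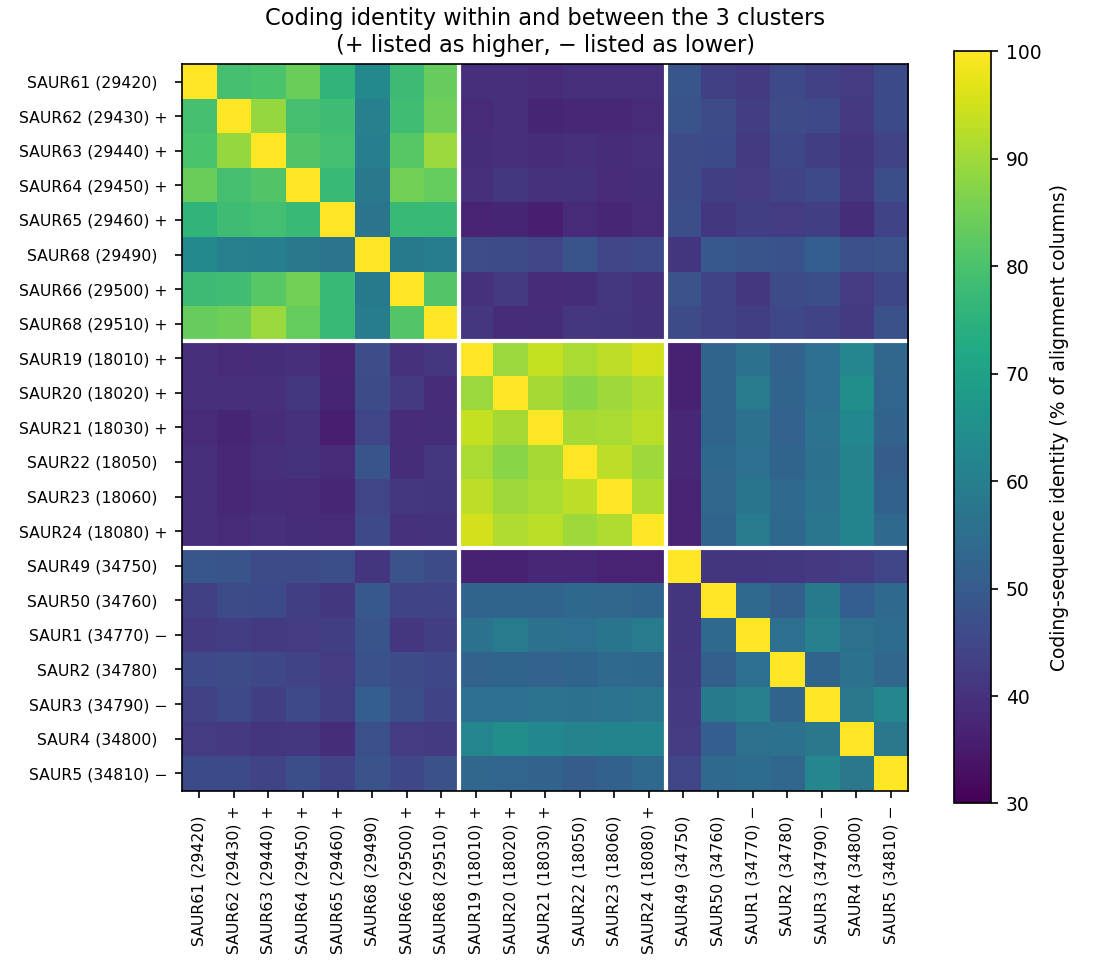
Identity of coding sequences (% of alignment columns, colour scale from 30 to 100) between all 21 annotated SAUR loci of the 3 clusters, ordered by cluster and locus, with the locus digits in brackets and + or − for loci listed as higher or lower. The chromosome 5 block is bright throughout (87.7% to 95.2%), the chromosome 1 block is less even (56.9% to 89.4%), and the chromosome 4 block (40.6% to 62.5%) is no brighter than much of its border with chromosome 5.

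The gene targeted by the RNAi was the lower of the pair. The wild-type library held 1699 reads of WRKY75 (AT5G13080) and the RNAi library 476. In RPKM, reads scaled to the deposited length and the library total, these are 29.2 and 8.87, with a log2 ratio of -1.72 (-1.87 to -1.57). The libraries therefore differ in WRKY75 in the sense of their labels.

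On chromosome 5, SAUR19, SAUR21 and SAUR24, the members with the best described role in cell expansion, all had more reads in WRKY75 RNAi. SAUR21 went from 6 wild-type reads to 83 in WRKY75 RNAi (0.289 and 4.34 RPKM), 15.0-fold more, with a log2 ratio of 3.91 (interval 2.73 to 5.40). SAUR24 had 16 and 68 reads (1.42 and 6.57 RPKM), 4.62-fold more, with a log2 ratio of 2.21 (1.41 to 3.09). SAUR19 had 17 and 50 reads (0.810 and 2.59 RPKM), 3.20-fold more, with a log2 ratio of 1.68 (0.86 to 2.56). SAUR19 and SAUR24 thus stood at almost equal reads in wild type, and SAUR21, the lowest of the 3 there, had the most reads of the 3 in WRKY75 RNAi. The intervals of SAUR21 and SAUR19 do not overlap when each read is counted. SAUR20 (AT5G18020), their listed neighbour, had 2 and 28 reads (log2 ratio 3.93, interval 1.94 to 7.04), so its value rests on almost no wild-type reads. SAUR22 (AT5G18050) and SAUR23 (AT5G18060), the remaining genes of the row, were not listed, which does not mean that they were equal.

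On chromosome 1, SAUR62 and SAUR68, which belong to the group named for SAUR63, were higher by nearly the same factor. SAUR62 went from 24 wild-type reads to 104 in WRKY75 RNAi (0.848 and 3.99 RPKM), 4.71-fold more, with a log2 ratio of 2.24 (interval 1.58 to 2.94). SAUR68 had 10 and 39 reads (0.393 and 1.67 RPKM), 4.24-fold more, with a log2 ratio of 2.08 (1.05 to 3.25). SAUR62 had the more reads of the pair in each library, and the intervals of the ratios overlap almost wholly. Their listed neighbours lay on the same side: SAUR63 (AT1G29440) with 16 and 88 reads, SAUR64 (AT1G29450) with 15 and 59, SAUR65 (AT1G29460) with 8 and 58, and SAUR66 (AT1G29500) with 6 and 66. Over the 6 listed loci of the cluster the log2 ratios ran from 2.08 in SAUR68 to 3.58 in SAUR66 (interval 2.38 to 5.08), and all 6 intervals overlap. SAUR61 (AT1G29420) and AT1G29490 were not listed. AT1G29490 also carries the name SAUR68 in the annotation, but SAUR68 in this text always means AT1G29510. SAUR63 lies within AT1G29435 on the opposite strand over 602 bases, and SAUR64 overlaps the same gene by 32 bases. No strand setting is named, so reads of these genes cannot be told apart. The 7 members overlap no other annotated locus.

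On chromosome 4 the reads went the other way. SAUR1 went from 45 wild-type reads to 4 in WRKY75 RNAi (1.64 and 0.159 RPKM), 9.66% of the wild-type value, with a log2 ratio of -3.37 (interval -5.31 to -1.92). SAUR5 had 36 and 8 reads (2.75 and 0.663 RPKM), 24.1% of the wild-type value, with a log2 ratio of -2.05 (-3.37 to -0.92). Both intervals are wide, since 4 and 8 reads carry them, and they overlap. SAUR3 (AT4G34790), which lies between them, had 12 wild-type reads and 0 in WRKY75 RNAi, and the upper end of its counting interval was a log2 ratio of -1.35 over reads and -0.12 over read pairs. The other SAUR genes of this stretch, SAUR49 (AT4G34750), SAUR50 (AT4G34760), SAUR2 (AT4G34780) and SAUR4 (AT4G34800), were not listed.

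**Figure D2:**
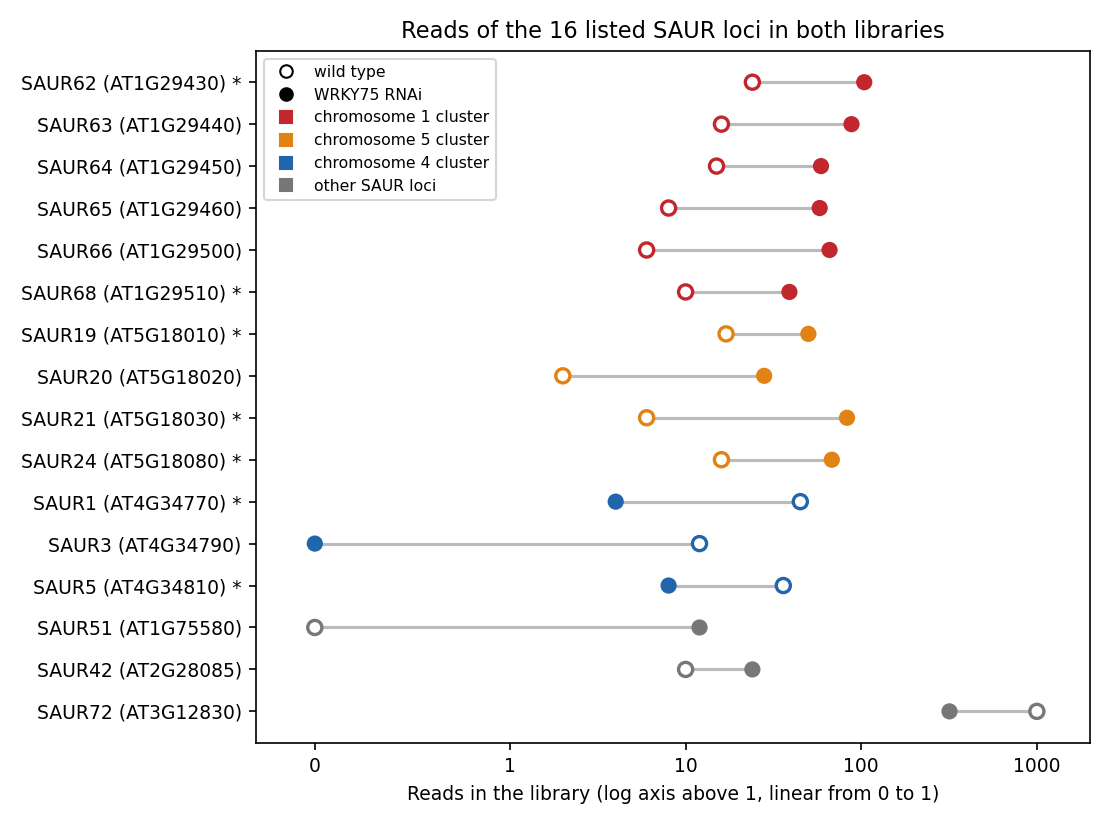
Reads of the 16 listed SAUR loci in wild type (open circles) and WRKY75 RNAi (filled circles), on an axis that is linear from 0 to 1 and logarithmic above, coloured by cluster, with an asterisk for the 7 members. Filled circles lie to the right for chromosomes 1 and 5, up to 104 reads in SAUR62, and to the left for chromosome 4, where open circles reach 45 reads in SAUR1.

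In wild type, RPKM fell from SAUR5 (2.75) and SAUR1 (1.64) over SAUR24 (1.42), SAUR62 (0.848), SAUR19 (0.810) and SAUR68 (0.393) to SAUR21 (0.289). In WRKY75 RNAi it fell from SAUR24 (6.57) over SAUR21 (4.34), SAUR62 (3.99), SAUR19 (2.59) and SAUR68 (1.67) to SAUR5 (0.663) and SAUR1 (0.159). SAUR24, SAUR62, SAUR19 and SAUR68 kept their order among themselves, as did SAUR5 and SAUR1, and SAUR21 moved from the lowest place to the second. The place of the chromosome 4 pair above or below the others follows from the choice of members. There is no spread between samples against which neighbours in these orders could be compared. RPKM levels also depend on the deposited length. This was 272 bases for SAUR24, 1 base under its coding length, and 317 bases for SAUR5, 40 bases under its coding length in TAIR10.1, whereas for the 5 other members it ran past the coding length by 183 to 348 bases. Which bases these lengths cover is not known. Levels of SAUR24 and SAUR5 may therefore not be comparable with those of the others, while ratios between libraries use the same length in both.

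A sum over a cluster does not depend on how reads were divided among its listed loci, though reads shared with unlisted loci or counted at several loci still enter it. The 6 listed loci on chromosome 1 held 79 wild-type reads and 414 in WRKY75 RNAi (1.91 and 10.9 RPM, reads scaled to the library total), 5.69-fold more, with a log2 ratio of 2.51 (interval 2.16 to 2.88). The 4 listed loci on chromosome 5 had 41 and 229 reads (0.992 and 6.02 RPM), 6.07-fold more, with a log2 ratio of 2.60 (2.12 to 3.12). The 3 listed loci on chromosome 4 had 93 and 12 reads (2.25 and 0.315 RPM), 14.0% of the wild-type value, with a log2 ratio of -2.83 (-3.84 to -1.96). The chromosome 1 and chromosome 5 sums thus changed by factors whose intervals overlap almost wholly, and the chromosome 4 sum lay on the other side of 0, as the choice of listed loci fixes. With the 7 members alone the sums gave 2.19, 2.49 and -2.64.

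**Figure D3:**
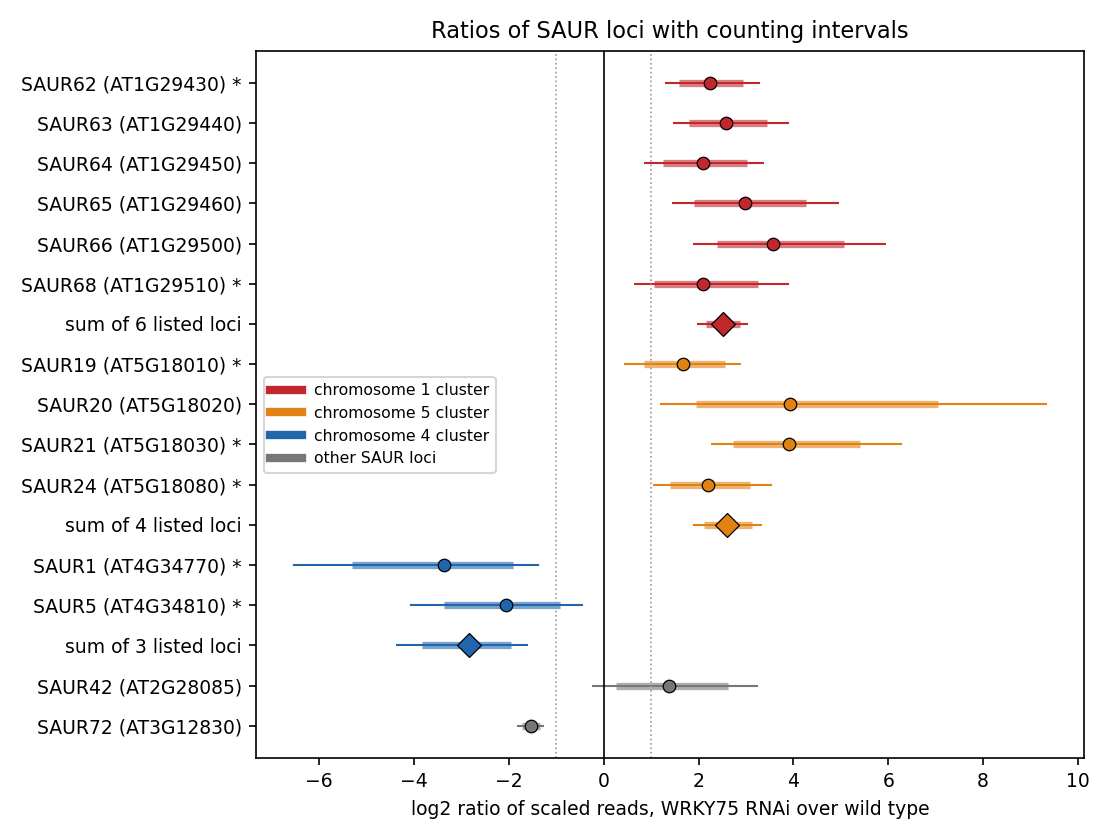
log2 ratios of WRKY75 RNAi over wild type for the 14 SAUR loci with reads in both libraries (circles, the 7 members with an asterisk) and for the sums over each cluster's listed loci (diamonds). Thick bars are 95% counting intervals over reads, thin bars the same over read pairs, and dotted lines mark a 2-fold difference. The sums stand at 2.51, 2.60 and -2.83. Among the members the thin bars of SAUR68, SAUR19 and SAUR5 reach within 2-fold, as do the thick bars of SAUR19 and SAUR5.

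The counting unit bears on these intervals. Among rows with fewer than 50 reads, 78.8% of the wild-type values and 74.2% of the WRKY75 RNAi values were even numbers, and 5 of 7 members had an even number in each library. The sources used here do not say whether both reads of a pair were counted. Intervals were therefore also computed with reads halved to pairs and rounded up. The interval then still lay beyond 2-fold for SAUR62 (1.31 to 3.28), SAUR21 (2.28 to 6.26), SAUR24 (1.07 to 3.53) and SAUR1 (-6.53 to -1.39). It reached within 2-fold for SAUR68 (0.66 to 3.89), SAUR19 (0.45 to 2.88) and SAUR5 (-4.07 to -0.45), and the intervals of SAUR21 and SAUR19 then overlapped. For SAUR19 (0.86 to 2.56) and SAUR5 (-3.37 to -0.92) the interval over reads already reached within 2-fold.

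Of 79 SAUR loci in the annotation, 12 (15.2%) were listed as higher and 4 (5.06%) as lower, beside the 4.32% and 3.17% of all tested models. Of the 21 loci in the 3 clusters 13 were listed, namely 6 of 8 on chromosome 1, 4 of 6 on chromosome 5 and 3 of 7 on chromosome 4. Of the 58 elsewhere 3 were listed. The clusters were chosen for loci in the tables, so this concentration is not a finding. SAUR72 (AT3G12830) was by far the most abundant, with 1000 and 318 reads (25.3 and 8.73 RPKM; log2 ratio -1.53, interval -1.72 to -1.35). SAUR42 (AT2G28085) had 10 and 24 reads (1.38, interval 0.27 to 2.61) and SAUR51 (AT1G75580) had 0 and 12. The median log2 ratio of the 5 higher members was 2.21, beside 1.49 over the 1148 loci listed as higher with reads in both libraries, and that of the 2 lower members was -2.71, beside -1.48 over 852 loci listed as lower. By size of ratio SAUR21 ranked 27 of 1148 and SAUR1 25 of 852. The members were chosen by this same contrast, so these medians and ranks are descriptions and not a finding. The higher members also had few wild-type reads, 6 to 24, beside a median of 36 over all loci listed as higher. The lower members had 36 and 45, beside a median of 158 over all loci listed as lower. SAUR19 ranked 474 and was the member nearest to the 2-fold threshold of the tables, and values under that threshold were not analysed here.

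Among the other annotated loci inside the span of a cluster or within 5 loci on either side, 0 of 21 were listed on chromosome 1, 0 of 13 on chromosome 4 and 1 of 18 on chromosome 5. Of these 52 loci 28 are protein-coding, and the rest are mostly annotated RNA genes. Whether those RNA genes were among the tested models is not known. With 7.49% of all tested models listed, 1 of 28 is no result about the surroundings. The listed locus was AT5G18090, close to SAUR24, with 0 and 12 reads. Loci of both strands were among the listed SAUR genes on chromosomes 1 and 5, while the 3 listed on chromosome 4 all lie on the plus strand.

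**Figure D4:**
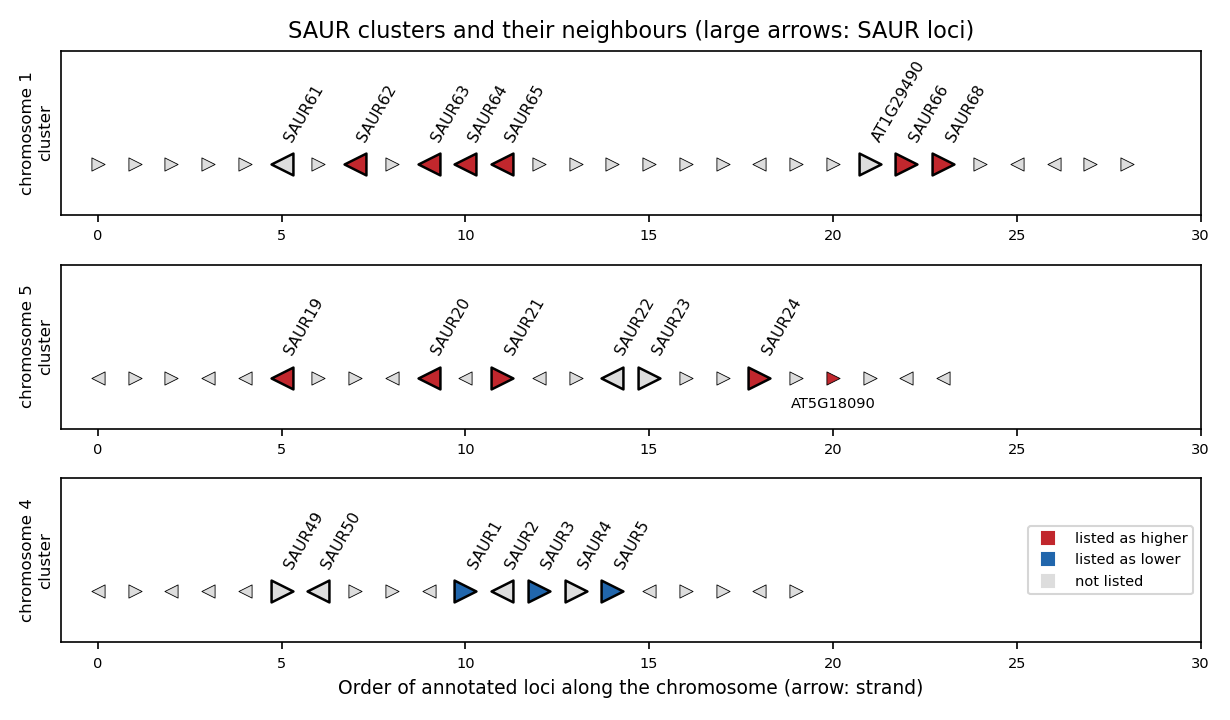
Annotated loci of each cluster with 5 loci on either side, in their order along the chromosome (horizontal axis, rank of the locus), with arrows for the strand, large for SAUR loci, and colours for loci listed as higher, listed as lower or not listed. Listed loci are SAUR loci, with the exception of AT5G18090 beside the chromosome 5 cluster.

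How far reads could be shared was measured as the share of windows of a TAIR10.1 transcript that also occur elsewhere. These transcripts are longer than the deposited lengths, with 839 against 503 bases in SAUR21, 626 against 272 in SAUR24 and 834 against 685 in SAUR62. The shares therefore take in sequence beyond the deposited lengths and can differ from those of the counted bases. The sources used here do not give the read length, so 4 window lengths were used. At 36 bases an exact copy elsewhere in the nuclear genome existed for 42.3% of windows in SAUR68, 31.0% in SAUR62, 33.3% in SAUR19, 20.1% in SAUR24 and 11.8% in SAUR21. For SAUR1 and SAUR5 the share was 0% at every length. At 75 bases it remained 27.6% in SAUR68 and 14.6% in SAUR62, but was at most 2.50% in the 3 chromosome 5 members, and at 100 bases it was 21.6%, 8.57% and 0%. When up to 2 mismatches to another SAUR transcript were allowed, the shares at 36 bases rose to 71.6% in SAUR19, 65.8% in SAUR24, 63.3% in SAUR62, 59.7% in SAUR68 and 32.8% in SAUR21, against 1.91% in SAUR5 and 0% in SAUR1. The partners of SAUR62 and SAUR68 lay in their own cluster except for SAUR75 (AT5G27780), which was not listed. Those of SAUR19 all lay in its own cluster. At 36 bases SAUR21 and SAUR24 also had partners outside it, among them AT3G03840, which was not listed, and SAUR5 had SAUR20 as a partner. The part that shared reads have in the members' values was not tested. For SAUR1 and SAUR5 hardly any window was shared at any length, while for the chromosome 5 members the share depends on the window length and on the mismatches allowed. Counted once per group of loci linked by an exact 36-base stretch, the 12 higher SAUR loci become 6, while the 4 lower loci stay 4. The 4 listed loci on chromosome 5 then form 1 group, and SAUR62, SAUR63 and SAUR68 another.

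**Figure D5:**
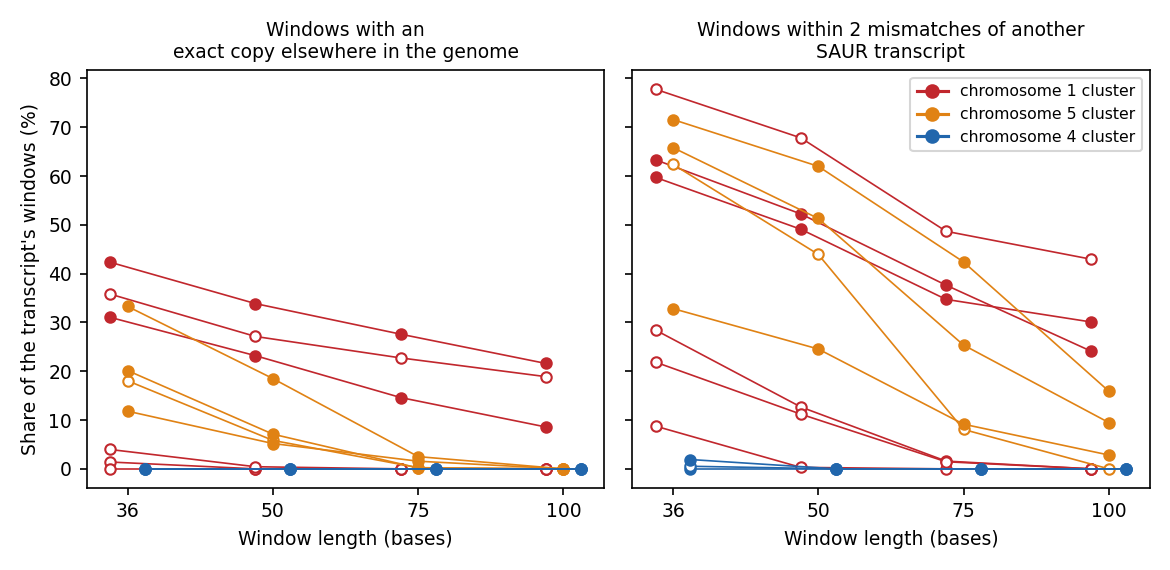
Share of a transcript's windows (%) with an exact copy elsewhere in the genome (left) or within 2 mismatches of another SAUR transcript (right), by window length in bases, for the 13 listed loci of the 3 clusters (filled circles, the 7 members). At 36 bases the chromosome 1 and 5 members range from 11.8% to 42.3% on the left, and the chromosome 4 loci stay at 0%.

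Promoter stretches, taken as the 250 bases before and 50 bases after the annotated start in TAIR10.1, were searched on both strands for 4 words, none of which contains another. The auxin response element TGTCTC was in the promoters of 2 of 7 members and of 11 of 79 SAUR loci (13.9%). Its share over all 27443 promoters was 14.2%. Among the listed loci it was in 3 of the 6 promoters on chromosome 1, 1 of the 4 on chromosome 5 and 0 of the 3 on chromosome 4. SAUR62 and SAUR68 hold it before the word TATAAA, with 24 bases from the first base of one word to the first of the other, in stretches of nearly the same sequence, which are printed with both words in capitals, from the strand of the gene (minus for SAUR62, plus for SAUR68). TGTCTC begins at -162 in SAUR62 and at -93 in SAUR68, counted from the annotated start:
SAUR62: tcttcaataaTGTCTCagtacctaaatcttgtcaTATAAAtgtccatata
SAUR68: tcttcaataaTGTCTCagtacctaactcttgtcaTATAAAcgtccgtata
The core of the W-box, TTGAC, to which WRKY factors bind, was in the promoters of SAUR21, SAUR24, SAUR1 and SAUR5, 4 of 7 members, and not in those of SAUR62, SAUR68 and SAUR19. It is present in 50.5% of all promoters. The G-box CACGTG, bound by factors of light signalling, was in 0 of 7 and in 7.68% of all promoters. TATAAA was in 4 of 7, beside 52.1% of all. These matches are descriptions of the letters in this window.

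Genes of the processes in which SAUR proteins act were counted from 7 lists with 91 entries. Of these, 11 were listed as higher, 2 as lower and 78 were not listed. As shares these are 12.1% and 2.20% of the entries, beside 4.32% and 3.17% of all tested models. The lists were chosen with earlier results of these data known, so the difference between these shares is not a finding. Among auxin genes, 1 of 18 Aux/IAA repressors was listed, IAA29 (AT4G32280), with 27 and 92 reads (log2 ratio 1.89, interval 1.26 to 2.56). Of 7 GH3 enzymes that conjugate auxin, DFL1 (AT5G54510) was listed as higher, with 156 and 411 reads (1.52, 1.25 to 1.79). Of 17 genes of auxin synthesis, perception and response, 3 were higher and 0 lower. They were the auxin synthesis genes YUC9 (AT1G04180; 16 and 88 reads, 2.58, interval 1.80 to 3.45) and YUC2 (AT4G13260; 49 and 124 reads, 1.46, interval 0.97 to 1.97) and MP (AT1G19850; 242 and 520 reads, 1.22, interval 1.0003 to 1.45), which encodes an auxin response factor.

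Of 9 clade D phosphatases, which SAUR19 proteins bind, 2 were listed, 1 in each direction. APD7 (AT5G02760) was lower, with 499 and 144 reads (log2 ratio -1.67, interval -1.95 to -1.40), and APD9 (AT5G66080) was higher, with 332 and 647 reads (1.08, 0.89 to 1.28). Of 11 plasma membrane proton pumps only HA9 (AT1G80660) was listed, on 0 and 8 reads. In the wall-loosening list, the expansin genes EXPA10 (AT1G26770; 27 and 126 reads, 2.34, interval 1.73 to 2.999) and EXP3 (AT2G37640; 139 and 467 reads, 1.87, interval 1.59 to 2.15) were higher and EXPA11 (AT1G20190; 30 and 8 reads, -1.79, interval -3.12 to -0.63) was lower, 3 of 16 genes. Among 13 growth-regulating transcription factors, PRE1 (AT5G39860; 16 and 43 reads, 1.55, interval 0.69 to 2.47) and PRE5 (AT3G28857; 2 and 14 reads, 2.93, interval 0.80 to 6.11) were higher. The bHLH proteins they encode promote elongation. Medians were 1.46 over the 3 listed genes of auxin synthesis and response and 1.87 over the 3 of the wall-loosening list. They were 2.24 over the 2 transcription factors and -0.30 over the 2 phosphatases, beside 1.49 over all loci listed as higher and -1.48 over all listed as lower. The medians of the phosphatases and of the wall-loosening list mix both directions, and that of the phosphatases describes neither gene. Medians of so few genes carry little weight, and over read pairs the interval of PRE5 reached below 0 (-0.03 to 8.42).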

How the data were processed

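Reads were aligned with Bowtie to TAIR10, per the submitters' processing notes. The sources used here do not name the counter, strand setting, read length, read filters or statistical test. Per the file headers, the deposited tables of 998 lower and 1360 higher transcript models give counts of reads, RPKM, its log2 ratio, a p-value and the false discovery rate. Another deposited table gives p-values of 93 ontology terms. Deposited log2 ratios equal those recomputed from RPKM (largest difference 7.29e-08) where both libraries had reads. The number of tested models, 31475, was computed from false discovery rates, p-values and ranks. The row without a locus held 0.103% of wild-type and 0.0384% of RNAi reads and was left out.

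Each locus was represented by the model with most reads; every listed SAUR locus had 1. SAUR loci were found by name or product in the TAIR10.1 annotation (80, of which AT5G01830, an ARM repeat protein, was left out). Files carry no coordinates, and none are printed, since the builds are not named alike. Transcripts, coding sequences and promoters were cut from RefSeq TAIR10.1 by locus. Coding and protein sequences were aligned globally with Biopython 1.88. Exact windows were sought on both strands of the 5 nuclear chromosomes. Interval and window code was tested on simulated data. Named are the members, all other listed SAUR loci, WRKY75, and up to 3 listed genes per list and direction. Members and lists were chosen with earlier results of these data known. No paired analysis was possible with 1 library per genotype.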

Additional observations from a re-analysis of the deposited data

How the results depend on the processing

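No value of a member or cluster changed sign under the settings tried, but these settings could not have reversed one. An equal pseudocount in both libraries keeps the sign, and the sums over members alone use loci listed in the same direction. The scalings shift ratios by much less than any member's value. The read pairs, the sums over members alone, the thresholds on the gene lists and the near matches were chosen after seeing the data. Scaling to equal summed reads of the listed loci shifts every log2 ratio by -0.13 and no scaling by -0.12. A pseudocount of 1 RPKM, which is close to the members' own levels, took the log2 ratio outside its counting interval for SAUR62 (1.43), SAUR68 (0.94), SAUR21 (2.05) and SAUR1 (-1.19). The same held for the clusters on chromosome 1 (1.37), chromosome 5 (1.52) and chromosome 4 (-1.03). For clusters any pseudocount was added to the mean RPKM over the listed loci, which is a different measure from the summed reads. The other 46 of 53 alternative values stayed inside. This count says little about how firm the values are. Reads summed over all listed models repeat the main value, since each listed SAUR locus has 1 model, and both scalings shift all ratios alike by a small amount. Of 12 higher and 4 lower SAUR loci, 10 and 2 reached an absolute log2 ratio of 2, 7 and 1 had at least 10 reads in both libraries, 6 and 4 remained as groups linked by an exact 36-base stretch, and 7 and 2 had a read-pair interval beyond 2-fold. The genes of the other lists became 3 higher and 0 lower, from 11 and 2, when the absolute log2 ratio had to reach 2. No paired analysis was possible because each genotype has 1 library. Depth limits SAUR1, SAUR5 and SAUR21 among the members and SAUR3, SAUR20, SAUR51, SAUR65 and SAUR66 beside them, each with fewer than 10 reads in 1 library.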

Other observations

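In the authors' deposited table of higher genes, SAUR21 and SAUR66 carry the same p-value, 2.06e-05, although they have 83 and 66 reads in WRKY75 RNAi. Both have 6 reads in wild type, and of 43 rows of that table with 6 wild-type reads, 10 carry this p-value, with 41 to 83 reads in WRKY75 RNAi. In the authors' deposited table SAUR62, whose ratio is smaller than that of SAUR21, has a p-value of 6.43e-10. The deposited p-values are therefore not used to order the SAUR loci.

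For lower genes, the authors' deposited table of ontology results places the 4 lower SAUR loci, SAUR1, SAUR3, SAUR5 and SAUR72, together in 3 of its 93 terms. The narrowest of these in the authors' deposited table, response to organic substance, holds 65 of 857 list genes against 1037 of 27594 background genes.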
